A study of Mus musculus with 12 samples.

Results

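The 7 genes described here, Krt15, Lhx2, Sox9, Cd34, Nfatc1, Foxc1 and Tbx1, are regulators and markers of hair follicle stem cells, and they were followed in mouse skin after bleomycin, with and without Thy-1. They were taken by symbol from the 55453 genes of the count file. All 7 had enough reads to be tested, among 18311 genes tested in all. Whole skin RNA was sequenced from 12 female C57/BL6 mice aged 8 to 12 weeks, 3 in each of 4 groups. WT mice received PBS (WT PBS) or bleomycin (WT BLM), and Thy-1–KO mice, which carry the deletion in every tissue and not in a chosen cell type, received PBS (KO PBS) or bleomycin (KO BLM). Bleomycin, a drug that makes the skin fibrotic where it is injected, was given s.c. into the back at 10 mg/kg per day. The study's methods give up to 14 days of injections and the labels 21 days of treatment, with harvest on day 21. The mice are named here by the numbers of their labels.

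Hair follicles regrow in cycles of growth, regression and rest, and the cells that renew them lie in the bulge, a niche in the upper follicle below the sebaceous gland. Bulge cells are largely quiescent, and BMP signals from the surrounding skin help to hold them there until growth starts. Lhx2, Sox9, Nfatc1, Foxc1 and Tbx1 are transcription factors that mouse genetics ties to the identity, self-renewal or quiescence of these cells, while Krt15, a keratin, and CD34, a surface glycoprotein, are the markers by which the cells are commonly recognised and sorted. None of the 7 is restricted to the bulge. SOX9 and LHX2 are also made in the growing part of the follicle, CD34 in endothelium, mast cells and fibroblasts, NFATC1 in lymphocytes and endothelium, FOXC1 in mesenchyme and TBX1 in muscle progenitors.

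Between 26473700 and 38890450 reads per mouse fell on genes. Levels are CPM, the reads on a gene scaled to a common library size by the TMM method, and a gene was called changed at a Benjamini-Hochberg adjusted p under 0.05 in edgeR's quasi-likelihood test. Reads of Thy1 itself were still counted in the KO mice. They came to 45.6 to 96.9 CPM in KO PBS against 104 to 150 CPM in WT PBS mice. With bleomycin they came to 84.7 to 128 CPM in KO against 231 to 416 CPM in WT mice. Neither difference passed the threshold (adjusted p = 0.224 and 0.112, edgeR). Counts per gene do not show which exons were read, so this gene is no check of the labels. The tissue carried its markers, since 6 basal epidermis genes summed to between 4952 and 16240 CPM in every mouse. Mice differed widely in 19 genes of growing hair, mostly hair shaft and inner sheath keratins. Their mean was 9.95 to 10.62 log2 CPM in WT PBS and −0.10 to 3.95 log2 CPM in WT BLM mice. In KO PBS mice it was 10.58 log2 CPM in mouse 136 but −0.58 and 2.29 log2 CPM in mice 137 and 139, and in KO BLM mice it was 9.49 log2 CPM in mouse 141 but 5.56 and 6.63 log2 CPM in mice 143 and 144. Mice 136 and 141 thus stood apart from their groups, and results that rest on them are given with and without them. WT BLM mouse 146, at 3.95 log2 CPM, also stood apart from mice 145 and 147, at 0.07 and −0.10 log2 CPM. No call of the 7 genes changed without it.

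The order of the groups differed between the genes. Mean levels of Lhx2, Sox9, Foxc1 and Tbx1 ran in the same order, WT PBS, KO PBS, KO BLM and then WT BLM, and in each of these genes only the last step separated neighbours without overlap of single mice. Krt15 and Cd34 had their highest mean in KO PBS mice, and no neighbouring groups were separated. Nfatc1 ran from WT BLM through KO PBS and KO BLM to WT PBS, with only the last pair not overlapping. Per length of transcript, Krt15 stood far above the rest, at a mean of 529 RPKM in WT PBS mice and 1431 RPKM in KO PBS mice. The group means of the other 6 genes lay between 3.09 RPKM (Foxc1 in WT BLM) and 42.8 RPKM (Cd34 in KO PBS).

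**Figure D1:**
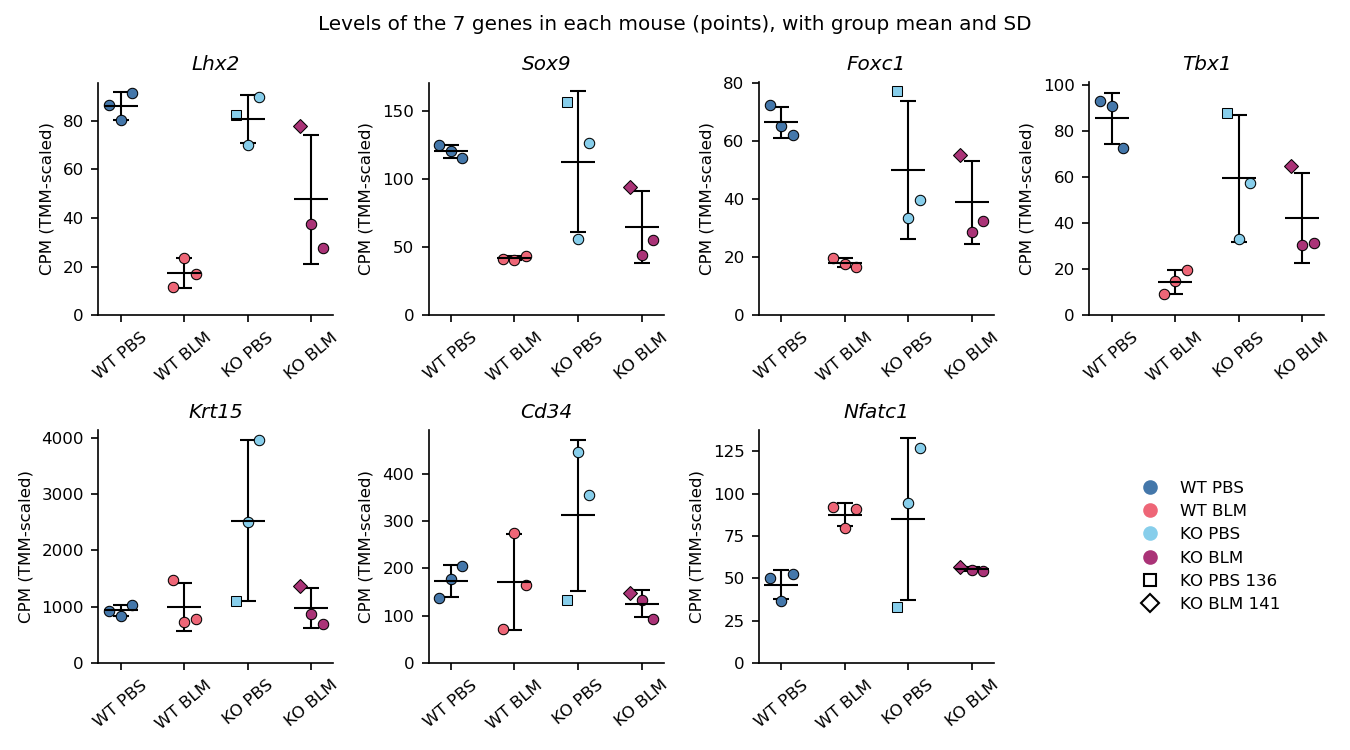
Level of each of the 7 genes (CPM after TMM scaling, linear axes from 0) in the 12 mice by group. Each point is 1 mouse, the square and the diamond mark KO PBS mouse 136 and KO BLM mouse 141, and horizontal lines with bars give the group mean and SD (n = 3). Lhx2, Sox9, Foxc1 and Tbx1 sit lowest in WT BLM mice, and Krt15 reaches 3972 CPM in 1 KO PBS mouse.

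To ask how bleomycin acts on these genes when Thy-1 is present, WT BLM mice were compared with WT PBS mice. Lhx2, Sox9, Foxc1 and Tbx1 fell by 2.86-fold to 5.85-fold, and none of the 7 rose past the threshold. In bulk skin, fewer cells of a type and less RNA per cell cannot be told apart. The 4 lower calls among 7 genes compare with 14.1% of all genes tested that were called lower in this comparison, and 34.0% that were called in either direction. The median log2 fold change of the 7 genes was −1.52, against 0.02 over all genes tested.

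Lhx2, a LIM homeodomain factor that keeps follicle stem cells in place and undifferentiated, was measured at 86.3, 80.2 and 91.6 CPM in WT PBS mice and at 11.5, 23.6 and 16.9 CPM in WT BLM mice. Every treated mouse lay far below every control. The log2 fold change was −2.31 ± 0.37 (SE), which is 4.96-fold lower, with an adjusted p of 0.00467 in edgeR's test. Tbx1, a T-box factor needed for bulge cells to renew themselves over repeated hair cycles, gave 92.9, 90.6 and 72.4 CPM in WT PBS mice and 9.28, 14.8 and 19.6 CPM in WT BLM mice. It had the largest fold change of the 7, at −2.55 ± 0.42 on the log2 scale (5.85-fold lower, adjusted p = 0.00487, edgeR).

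Foxc1, a forkhead factor that restrains bulge cells from re-entering the cell cycle, read 72.3, 65.1 and 61.9 CPM in WT PBS and 19.7, 17.8 and 16.7 CPM in WT BLM mice. The drop of 3.67-fold (log2 fold change −1.88 ± 0.32, adjusted p = 0.00546, edgeR) was much larger than the spread, a CV of 8.03% in WT PBS and 8.42% in WT BLM mice. Sox9, which specifies follicle stem cells and their outer root sheath progeny, was the steadiest of the 7 genes in WT skin. Its 3 WT PBS mice lay at 125, 121 and 115 CPM and its 3 WT BLM mice at 41.5, 40.7 and 43.9 CPM, a CV of 3.95% and 3.91%. The fold change was 2.86-fold lower (log2 −1.52 ± 0.35, adjusted p = 0.0129, edgeR). The calls of Lhx2, Sox9, Foxc1 and Tbx1 held without any 1 of the 12 mice, with adjusted p of at most 0.0416, and groups that did not overlap and lay lower were seen for 28.7% of all genes tested. With the growing hair mean as a covariate none of the 4 was called (adjusted p 0.226 to 0.727, edgeR), and of all genes 0.0928% were. The log2 fold changes were then −1.73 for Lhx2, −1.47 for Tbx1, −0.89 for Foxc1 and −0.53 for Sox9. That mean nearly coincides with treatment in WT mice, so the 2 cannot be told apart there.

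The starts of 3 of the 4 genes that fell are shown because these genes moved together in WT skin. RefSeq promoter windows (250 bases before to 50 bases after a start) were at hand for Lhx2, Tbx1, Foxc1 and Cd34. The stretches below are 5′ to 3′ on the gene's own strand, in build GRCm38.p6, and end at the base before the annotated gene. They lie at chr2:38339031-38339280 on the plus strand for Lhx2, at chr16:18590672-18590921 on the minus strand for Tbx1 and at chr13:31806396-31806632 on the plus strand for Foxc1. Capitals mark GGAAAA, the core letters of an NFAT site, which lies in the Foxc1 stretch 60 bases before the RefSeq start.
Lhx2: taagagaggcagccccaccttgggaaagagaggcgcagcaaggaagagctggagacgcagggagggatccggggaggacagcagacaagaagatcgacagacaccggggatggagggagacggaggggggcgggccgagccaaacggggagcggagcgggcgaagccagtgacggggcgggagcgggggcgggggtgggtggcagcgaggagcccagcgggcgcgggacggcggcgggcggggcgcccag
Tbx1: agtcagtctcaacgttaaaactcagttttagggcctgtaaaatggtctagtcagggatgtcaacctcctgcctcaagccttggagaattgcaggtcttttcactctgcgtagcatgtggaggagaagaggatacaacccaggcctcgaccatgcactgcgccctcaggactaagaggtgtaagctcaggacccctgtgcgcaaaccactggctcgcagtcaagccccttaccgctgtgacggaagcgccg
Foxc1: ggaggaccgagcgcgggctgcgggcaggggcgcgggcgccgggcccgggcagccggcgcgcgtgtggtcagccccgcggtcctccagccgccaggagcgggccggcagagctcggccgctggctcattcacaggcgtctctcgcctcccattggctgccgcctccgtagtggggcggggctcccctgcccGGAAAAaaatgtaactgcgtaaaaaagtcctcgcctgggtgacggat

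In these stretches 72.8% of the bases of Lhx2, 72.6% of Foxc1 and 54.4% of Tbx1 were G or C, against a median of 52.4% over all promoters. CG pairs numbered 25, 29 and 10. Both strands of the windows, each 300 bases long, were searched for the core letters of 6 kinds of site. The NFAT core GGAAAA was found in 23.4% of 32851 promoter windows. The SOX core AACAAT was found in 10.7% of them and the LIM homeodomain core, read TAATTA on either strand, in 5.3%. The T-box core AGGTGTGA was found in 1.3%, the forkhead core GTAAACA in 3.6% and the TATA box, taken as TATAAA, in 13.6%. Apart from GGAAAA in Foxc1, and GGAAAA on the minus strand 139 bases before a start inside Lhx2, no window of Lhx2, Tbx1, Foxc1 or Cd34 had a match before its start. These are matches of letters only. Lhx2 spans chr2:38339281-38369733, Tbx1 chr16:18580979-18590671 and Sox9 chr11:112782224-112787760 in GENCODE M21 (GRCm38), and Foxc1, which has 1 exon, spans chr13:31806633-31812476.

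The remaining members, the markers Krt15 and Cd34 and the quiescence factor Nfatc1, did not fall with bleomycin in WT skin. Krt15 was 928, 836 and 1038 CPM in WT PBS mice and 1479, 719 and 778 CPM in WT BLM mice. The treated mice thus lay on both sides of the controls (log2 fold change 0.09 ± 0.45, adjusted p = 0.893, edgeR). Cd34 read 137, 178 and 204 CPM in WT PBS and 71.5, 276 and 165 CPM in WT BLM mice, again on both sides, with a log2 fold change of −0.02 ± 0.49 (adjusted p = 0.978, edgeR). Both intervals are wide, and the sign of either gene turned when a single mouse was left out.

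Nfatc1, which acts downstream of BMP and calcineurin signals to repress the cell cycle in bulge cells, was 50.0, 36.4 and 52.4 CPM in WT PBS mice and 92.2, 79.6 and 91.0 CPM in WT BLM mice. All 3 treated mice lay above all 3 controls, as they did for 28.3% of all genes tested. The log2 fold change of 0.92 ± 0.37 missed the threshold (adjusted p = 0.073, edgeR). It was 0.92 with an adjusted p of 0.00134 without KO PBS mouse 136, 0.92 with 0.0485 without KO PBS mouse 139 and 0.93 with 0.00352 when only the WT groups were fitted. These settings change the estimate of the spread, not the WT mice. Of all genes, 8565, 6148 and 7803 were called in these fits, in the same order, against 6222 with all mice. With the growing hair mean as a covariate the log2 fold change was −0.23 (adjusted p = 0.912, edgeR), where 17 of all genes were called. That mean nearly coincides with treatment in WT mice.

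The same comparison was made in KO mice. All 7 genes had a lower mean in KO BLM than in KO PBS mice, but none passed the threshold and none separated the groups. Of all genes tested, 0.306% were called here, and 19.3% had groups that did not overlap. At an unadjusted p under 0.05 there were 3 of the 7 genes and 20.0% of all genes, and DESeq2 called 1, Krt15, among 6.14% of all genes. The median log2 fold change of the 7 was −0.76, against −0.01 over all genes tested.

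Krt15 was 1108, 2507 and 3972 CPM in KO PBS mice 136, 137 and 139 and 1370, 874 and 690 CPM in KO BLM mice 141, 143 and 144. The controls spread over 3.59-fold, and mouse 136 fell below the highest treated mouse (log2 fold change −1.37 ± 0.46, adjusted p = 0.161, edgeR). Cd34 had the same layout, with 134, 446 and 356 CPM in KO PBS mice and 149, 134 and 93.3 CPM in KO BLM mice (log2 fold change −1.31 ± 0.50, adjusted p = 0.189, edgeR). Nfatc1 was 33.0, 94.6 and 127 CPM in KO PBS mice, while the 3 KO BLM mice lay close together at 56.6, 55.1 and 54.5 CPM. Its log2 fold change was −0.61 ± 0.36 (adjusted p = 0.358, edgeR). In each of these 3 genes mouse 136 was the low control.

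Lhx2 was 82.2, 70.1 and 89.8 CPM in KO PBS mice 136, 137 and 139 and 77.8, 37.7 and 27.5 CPM in KO BLM mice 141, 143 and 144. The KO controls thus lay at 70.1 to 89.8 CPM, near the 80.2 to 91.6 CPM of the WT controls, while the KO BLM mice ran from 27.5 CPM in mouse 144 to 77.8 CPM in mouse 141. Sox9 read 156, 55.6 and 126 CPM in KO PBS and 94.4, 44.1 and 55.6 CPM in KO BLM mice. Foxc1 read 77.0, 33.3 and 39.5 CPM in KO PBS and 55.2, 28.7 and 32.6 CPM in KO BLM mice. Mice 136 and 141 were the highest of their groups in both genes, and in Tbx1. Tbx1 was 87.5, 32.9 and 57.5 CPM in KO PBS and 64.6, 30.5 and 31.4 CPM in KO BLM mice. The log2 fold changes were −0.76 ± 0.35 for Lhx2, −0.80 ± 0.35 for Sox9, −0.36 ± 0.31 for Foxc1 and −0.49 ± 0.40 for Tbx1, with adjusted p of 0.233 to 0.527 in edgeR's test.

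These calls in KO skin turned on mice 136 and 141. Without mouse 136, Krt15 (log2 fold change −1.73, adjusted p = 0.0222), Cd34 (−1.68, 0.0355) and Nfatc1 (−1.0, 0.0115) were called lower by edgeR, where 4.79% of all genes were then called lower, and Foxc1 turned to 0.09. Without mouse 141, Lhx2 alone of the 7 was called (−1.31, adjusted p = 0.0325, edgeR), where 2.84% of all genes were called lower. Without both, Krt15 (−2.05), Cd34 (−1.82), Lhx2 (−1.29) and Nfatc1 (−1.02) were called lower, as were 8.73% of all genes, with adjusted p of 0.0125 to 0.0355 in edgeR's test. The same 7 genes thus held 0, 3, 1 or 4 calls, depending on which of these mice entered the fit. Without mouse 136, the KO PBS mice left had growing hair means of −0.58 and 2.29 log2 CPM. Those of the KO BLM mice were at least 5.56 log2 CPM. Treatment and hair growth thus cannot be told apart in the fits without mouse 136.

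**Figure D2:**
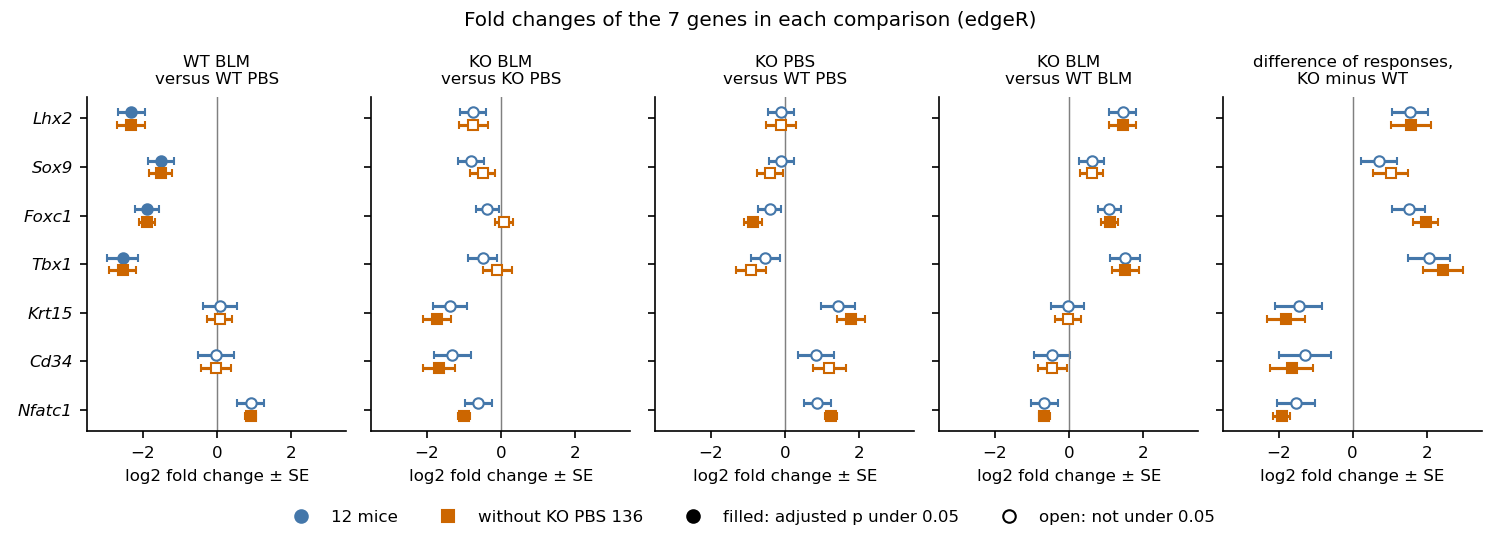
Log2 fold change with its SE (edgeR) of the 7 genes in the 4 comparisons between groups and in the difference of the bleomycin responses. Blue circles use all 12 mice and orange squares leave out KO PBS mouse 136, and filled symbols have an adjusted p under 0.05. With 12 mice only Lhx2, Sox9, Foxc1 and Tbx1 in WT BLM versus WT PBS are filled.

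Whether bleomycin acted differently in the genotypes was tested with the WT response subtracted from the KO response. None of the 7 genes passed the threshold, and 0 of all genes tested did (0%). At an unadjusted p under 0.05 there were 5 of the 7 genes and 5687 genes in all (31.1%). The response of Tbx1 was 2.06 ± 0.57 log2 units less negative in KO than in WT mice (adjusted p = 0.0749, edgeR), that of Lhx2 1.55 ± 0.50 (0.0894) and that of Foxc1 1.51 ± 0.44 (0.0797). The response of Nfatc1 was lower in KO mice by −1.54 ± 0.52 on the log2 scale (0.097), that of Krt15 by −1.46 ± 0.64 (0.151) and that of Cd34 by −1.30 ± 0.70 (0.219). Sox9 had the smallest difference, 0.72 ± 0.49 (0.32). DESeq2 called Lhx2, Nfatc1, Foxc1 and Tbx1, among 18.5% of all genes. Without KO PBS mouse 136, edgeR called all but Sox9, among 39.9% of all genes. The differences ran from −1.92 for Nfatc1 (adjusted p = 0.000532) to 2.45 for Tbx1 (adjusted p = 0.0065) in edgeR's test. The KO PBS mice in that fit had lower growing hair means than all KO BLM mice. Treatment and hair growth thus cannot be told apart in its KO mice. With the growing hair covariate the differences were smaller and none was called: 0.65 for Tbx1, 0.70 for Lhx2, 0.24 for Foxc1, −0.06 for Krt15 and −0.44 for Cd34, while Nfatc1 (0.19) and Sox9 (−0.58) changed sign.

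To see what the loss of Thy-1 went with in the absence of bleomycin, KO PBS mice were compared with WT PBS mice. None of the 7 genes was called, where 0.0655% of all genes were, and 2 of the 7 had an unadjusted p under 0.05, as did 20.4% of all genes. Krt15 was the gene of the 7 whose groups did not overlap, a layout seen for 18.9% of all genes: 1108 to 3972 CPM in KO PBS mice against 836 to 1038 CPM in WT PBS mice. Its log2 fold change was 1.44 ± 0.46 (2.71-fold higher, adjusted p = 0.204, edgeR), and DESeq2 called it, among 3.83% of all genes, at an adjusted p of 0.0413. Nfatc1 (0.87 ± 0.37) and Cd34 (0.85 ± 0.49) had higher means in KO PBS mice, Lhx2 (−0.09 ± 0.35) and Sox9 (−0.09 ± 0.34) slightly lower means, and Foxc1 (−0.41 ± 0.31) and Tbx1 (−0.52 ± 0.40) lower means on the log2 scale, with adjusted p of 0.233 to 0.882 in edgeR's test. Without mouse 136, edgeR called Krt15 (1.79, adjusted p = 0.00618), Nfatc1 (1.26, 0.00132) and Foxc1 (−0.87, 0.0221), among 36.7% of all genes. The 2 KO PBS mice that remain in that fit are those with low growing hair genes, so genotype and hair growth cannot be told apart in it.

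Among bleomycin-treated mice, KO BLM was compared with WT BLM. Lhx2, Sox9, Foxc1 and Tbx1 were higher in every KO mouse than in every WT mouse, and Nfatc1 was lower in every KO mouse. These 5 genes without overlap compare with 27.5% of all genes tested. None passed the threshold, where 0.0928% of all genes did, and 3 had an unadjusted p under 0.05, as did 16.6% of all genes. The log2 fold change was 1.53 ± 0.41 for Tbx1 (2.89-fold higher, adjusted p = 0.212, edgeR), 1.46 ± 0.36 for Lhx2 (2.75-fold, 0.198), 1.10 ± 0.32 for Foxc1 (2.15-fold, 0.226), 0.62 ± 0.35 for Sox9 (1.54-fold, 0.365) and −0.66 ± 0.36 for Nfatc1 (0.363). Cd34 (−0.45 ± 0.49) and Krt15 (−0.02 ± 0.45) overlapped. DESeq2 called Lhx2, Foxc1 and Tbx1, among 3.34% of all genes. Without KO PBS mouse 136, which is in neither group but adds to the shared spread, edgeR called Lhx2, Nfatc1, Foxc1 and Tbx1 with adjusted p of 0.028 to 0.0443, among 6.89% of all genes. Without mice 136 and 141 it called Foxc1 alone (log2 fold change 0.76, adjusted p = 0.0246), among 4.36% of all genes. With the growing hair covariate none was called, and the log2 fold changes were 0.76 for Tbx1, 1.04 for Lhx2, 0.40 for Foxc1, −0.09 for Sox9 and 0.12 for Nfatc1.

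The levels of the 7 genes are set beside the growing hair genes mouse by mouse, because those genes varied within the KO groups too. WT BLM mouse 147 and KO PBS mouse 137 had similarly low growing hair means, −0.10 and −0.58 log2 CPM. Lhx2 was 16.9 CPM in the WT mouse and 70.1 CPM in the KO mouse. Foxc1 was 16.7 and 33.3 CPM, Tbx1 19.6 and 32.9 CPM and Sox9 43.9 and 55.6 CPM. Krt15 was 778 and 2507 CPM and Cd34 165 and 446 CPM, while Nfatc1 was 91.0 and 94.6 CPM. These are 2 single mice, chosen after their values were seen, with no replicate check, and they differ in both genotype and treatment. WT BLM mouse 145 also had a low growing hair mean, 0.07 log2 CPM. In it Krt15 was 1479 CPM, Cd34 71.5 CPM and Nfatc1 92.2 CPM. Lhx2 was 11.5, Foxc1 19.7, Tbx1 9.28 and Sox9 41.5 CPM in that mouse. In KO PBS mouse 136, whose growing hair mean was like that of the WT PBS mice, Lhx2 and Tbx1 lay within the WT PBS range, Cd34 and Nfatc1 below it and Krt15, Sox9 and Foxc1 above it.

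**Figure D3:**
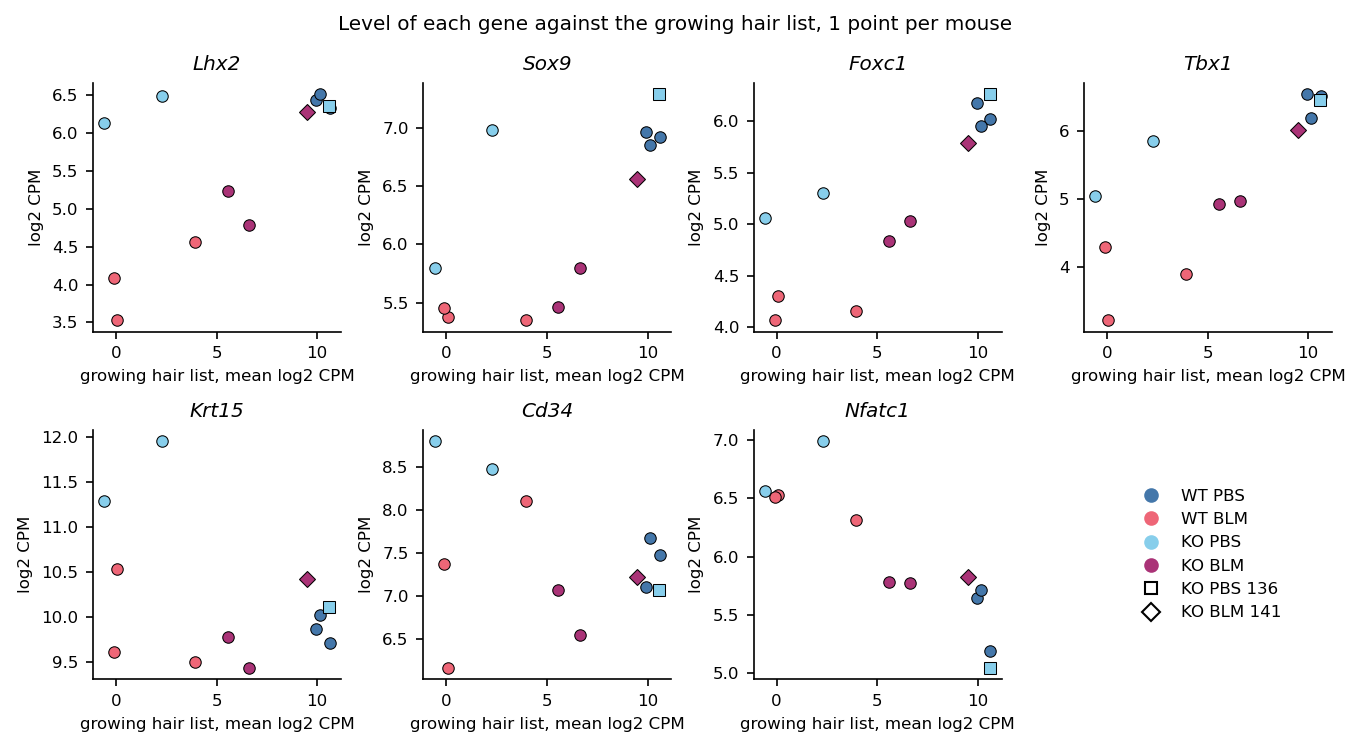
Log2 CPM of each of the 7 genes against the mean log2 CPM of 19 growing hair genes, 1 point per mouse, coloured by group, with KO PBS mouse 136 as a square and KO BLM mouse 141 as a diamond. WT PBS mice lie at growing hair means of 9.95 to 10.62 and WT BLM mice at −0.10 to 3.95. KO PBS mice 137 and 139 lie at −0.58 and 2.29.

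Other genes of the same niche gave a mixed answer in WT skin. Of 14 other bulge genes, 7 were lower and 1 was higher in WT BLM mice (median log2 fold change −0.55). Over all genes tested, 14.1% were called lower and 19.8% higher in this comparison. The leading ones were Vdr, the vitamin D receptor that hair cycling requires (−1.56 ± 0.29, adjusted p = 0.00675), the chromatin-associated factor Nfib (−0.95 ± 0.20, 0.00978), the Wnt pathway repressor Tcf7l1 (−1.12 ± 0.25, 0.0113) and Lgr5, the receptor of cycling follicle stem cells (−1.75 ± 0.44, 0.0164, all edgeR). The 1 higher gene was Itga6, an integrin of basal keratinocytes (0.57 ± 0.20, adjusted p = 0.0477, edgeR). Fold changes were positive in 6 of the 14 genes and negative in 8. Besides Itga6 the positive ones were Col17a1 (0.95), Bcl11b (0.74), Runx1 (0.60), Dkk3 (0.25) and Cd200 (0.04), none of them called. Among 5 genes of stem cell pools outside the bulge, 3 were lower and none higher, namely Prdm1 (−1.06), Lrig1 (−0.41) and Plet1 (−0.85).

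BMP ligands and their targets, which are linked to bulge quiescence, were lower as well. Of 15 BMP and calcineurin partners, 10 were lower and 2 higher in WT BLM mice. Of all genes tested, 14.1% were called lower and 19.8% higher. The ligands Bmp4 (log2 fold change −2.16 ± 0.30, adjusted p = 0.00365) and Bmp2 (−1.68 ± 0.33, 0.00778) and the target Id3 (−1.43 ± 0.21, 0.00405) fell, while the calcineurin subunit Ppp3r1 rose (0.48 ± 0.10, 0.00945, all edgeR). The catalytic subunit Ppp3ca also rose (0.60), and Rcan1, a calcineurin inhibitor and target of NFAT factors, did not pass (−0.18 ± 0.14, adjusted p = 0.325, edgeR). In the growing hair list 9 of 19 genes were called lower, with a median log2 fold change of −7.42. By edgeR with 12 mice, none of the genes of these 4 lists was called in the other comparisons or in the difference of responses. The shares of all genes called were 0.306% in KO BLM versus KO PBS, 0.0655% in KO PBS versus WT PBS and 0.0928% in KO BLM versus WT BLM. In the difference of responses the share was 0%. Few calls could thus fall in any list.

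**Figure D4:**
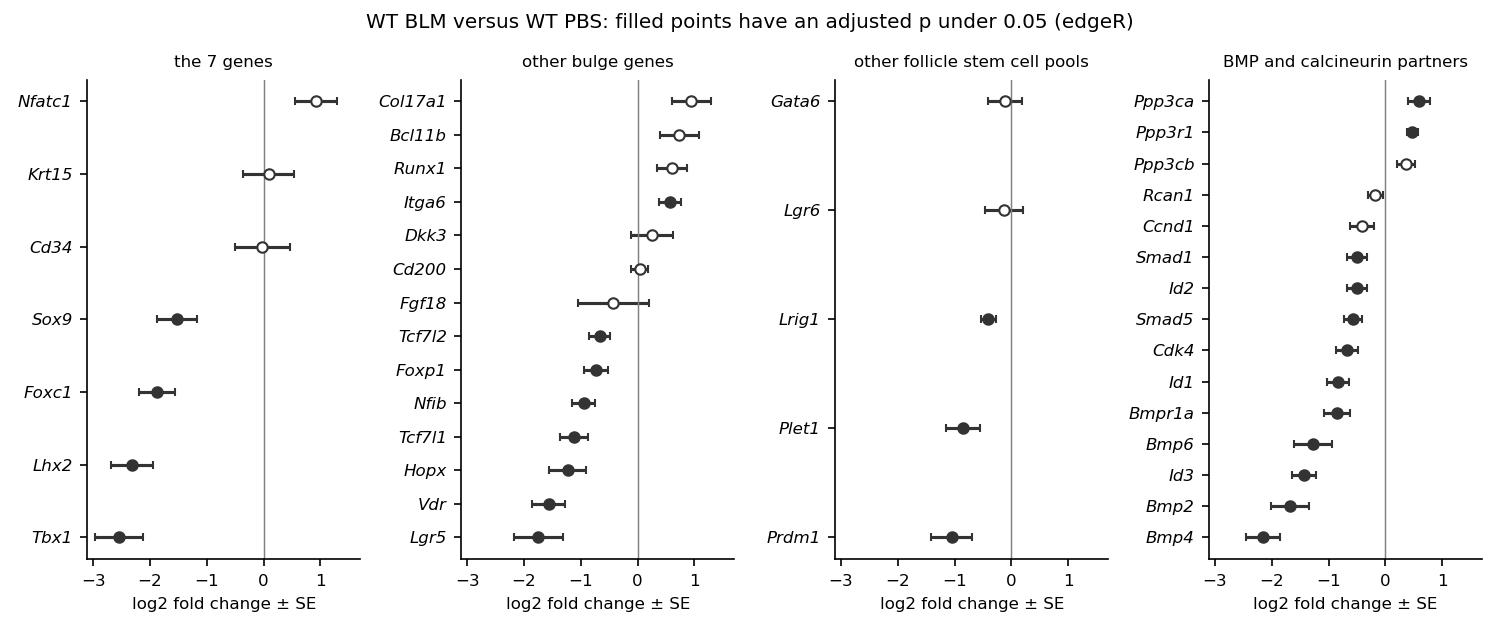
Log2 fold change with its SE in WT BLM versus WT PBS for the 7 genes, 14 other bulge genes, 5 genes of other follicle stem cell pools and 15 BMP and calcineurin partners. Filled points have an adjusted p under 0.05 (edgeR). Lower calls number 4, 7, 3 and 10 in the 4 panels.

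Markers of other cells that can express the 7 genes moved in the same comparison, and their part in the results was not tested. In WT BLM against WT PBS mice, 6 of 9 endothelial genes, 4 of 5 T cell genes, 2 of 5 mast cell genes, 4 of 5 macrophage genes and 5 of 6 skeletal muscle genes were called higher. Over all genes tested, 19.8% were called higher and 14.1% lower, the shares for these and the following lists. Summed levels of the endothelial list were 236 to 260 CPM in WT PBS, 288 to 716 CPM in WT BLM, 218 to 438 CPM in KO PBS and 360 to 390 CPM in KO BLM mice. For T cell genes the sums were 18.7 to 22.1, 30.9 to 66.0, 19.0 to 47.1 and 48.7 to 81.2 CPM in the same order, and for mast cell genes 61.0 to 72.5, 68.6 to 220, 71.9 to 226 and 171 to 393 CPM. Endothelial and T cell sums were thus higher in every WT BLM mouse than in every WT PBS mouse, while mast cell sums overlapped. Of 8 fibroblast genes, 2 (Col1a1 and Lum) were higher and 2 (Pi16 and Dpp4) lower, with sums of 2923 to 3618, 4605 to 13078, 2711 to 7875 and 3942 to 10420 CPM. Skeletal muscle genes summed to 4548 to 5043 CPM in WT PBS, 15596 to 32078 in WT BLM, 5623 to 22846 in KO PBS and 9174 to 17499 CPM in KO BLM mice.

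Keratinocyte lists bear on Krt15 and Sox9. Of 6 basal epidermis genes, 2 were higher and 1 was lower in WT BLM mice, of 6 differentiation genes 2 were higher and of 3 stress keratins 2 were higher. Basal sums were 6168 to 6731 CPM in WT PBS, 4952 to 11761 in WT BLM, 7525 to 9814 in KO PBS and 7055 to 16240 CPM in KO BLM mice. Of 6 sebaceous gland genes 3 were lower, and of 4 adipocyte genes none was called. Sebaceous sums were 1350 to 1646, 764 to 1819, 1439 to 3521 and 1523 to 2508 CPM in the same order, and adipocyte sums were 161 to 237, 94.1 to 528, 247 to 867 and 56.5 to 321 CPM. In the KO response, where 0.306% of all genes were called, the differentiation list had 1 called gene, and no other list had any.

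The genes with the nearest levels over the 12 mice were found by the root mean square (RMS) difference of log2 CPM among 13229 genes. Each gene was centred on its own mean but not scaled, so the size of its changes counts as well as their course. Nearest to Lhx2 were Lgr5 (0.31), the fibroblast protease gene Dpp4 (0.33) and Rgs6 (0.33). Nearest to Tbx1 were the chemokine gene Cxcl14 (0.31), Cd164l2 (0.32) and Fads6 (0.34), nearest to Foxc1 were Hoxb6 (0.18), Myh14 (0.19) and Bco1 (0.20), and nearest to Sox9 were Rnf152 (0.15), Efna5 (0.17) and Nudt11 (0.22). Cd34 ran closest to Pdgfra (0.22), a fibroblast receptor, then Man1a (0.23) and Ebf1 (0.23). Krt15 ran closest to Sec14l4 (0.26), Ackr2 (0.27) and Shisa7 (0.30), and Nfatc1 to Dusp18 (0.20), Vwa2 (0.21) and Cdon (0.23). None of the 7 genes was among the 3 nearest of another.

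Krt15 spans chr11:100131758-100135928, Cd34 chr1:194938819-194961279 and Nfatc1 chr18:80606205-80713071 in GENCODE M21 (GRCm38). Antisense genes overlap Cd34, Lhx2 and Nfatc1, but they held 1 to 31 reads each over the 12 mice, against 22593 to 76226 reads of the member they overlap. Krt15 is one of a family of similar keratin genes, and how reads shared between them were counted is not given in the sources used here.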

How the data were processed

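Whole skin RNA of 12 mice was sequenced from stranded mRNA libraries, and the authors deposited counts of reads per gene without normalization. The submitters' processing notes name GRCm38.p6 and MultiQC 1.7. The aligner, the counting tool and its use of strand are not given in the sources used here. Groups followed the sample labels. Counts were filtered (filterByExpr, at least 10 counts after scaling and 15 in total), scaled by TMM and fitted in edgeR 4.0.16 (R 4.3.3) as 4 group means, with Benjamini-Hochberg adjustment over 18311 genes and a threshold of 0.05. An exact test of 3 against 3 mice cannot pass that threshold, so none was run. The biological coefficient of variation was 34.9%. Log2 CPM used a prior count of 2, and RPKM the exon length in GENCODE M21 (54471 symbols, 98.2%, matched 1 gene). Promoters came from RefSeq. The fits were tested on simulated counts with 1 spread for all genes. Of 200 genes changed 4-fold in WT BLM, 175 were recovered, with 5 false calls. These counts lack the differences in growing hair between mice of a group, so they do not bear on calls that turn on single mice. The text names all 7 genes, the 3 genes nearest to each (mean of at least 1 log2 CPM, no model number) and up to 4 called genes per pathway list by adjusted p. Other genes named (Ppp3ca, Rcan1, Itga6, the uncalled bulge genes and the called fibroblast markers) were chosen after their values were seen. The 7 genes and all lists were chosen with earlier results of these data known. The alternatives were DESeq2 1.42.0, RLE and upper-quartile scaling, other filters, only the groups compared, leaving out mice, and the growing hair mean as a covariate. Plots were made with Python 3.11.15 and matplotlib 3.10.9.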

Additional observations from a re-analysis of the deposited data

Results flagged for a closer look

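Nfatc1 is listed because every WT BLM mouse lay above the mean of the WT PBS mice and every KO BLM mouse below the mean of the KO PBS mice. Neither response passed the threshold (log2 fold change 0.92, adjusted p = 0.073, in WT and −0.61, adjusted p = 0.358, in KO, edgeR), and the KO BLM mice (54.5 to 56.6 CPM) all lay above KO PBS mouse 136 (33.0 CPM). The difference of the responses, KO minus WT, was −1.54 on the log2 scale and did not pass the threshold (adjusted p = 0.097, edgeR). Without KO PBS mouse 136 it was −1.92 with an adjusted p of 0.000532 in edgeR's test, but that fit cannot tell treatment from hair growth in KO mice. With the growing hair mean as a covariate the difference was 0.19. The log2 fold changes of Nfatc1 were then −0.23 in WT and −0.039 in KO mice. Groups of 3 mice are too small for a check of single outlying mice.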

How the results depend on the processing

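Of 693 alternative values of the 7 genes, 615 kept their direction and their side of the threshold, 44 newly passed it, 4 no longer did and 30 changed sign. Called genes numbered 4 in WT BLM versus WT PBS and 0 elsewhere. With the growing hair covariate the count was 0 in WT, where 17 of all genes tested were called. It was 1 in KO BLM versus KO PBS (Sox9, adjusted p = 0.0336, edgeR). The number of all genes called in that KO fit is not given here, so the Sox9 call has no share beside it. DESeq2 called 1 gene in KO BLM versus KO PBS, 1 in KO PBS versus WT PBS, 3 in KO BLM versus WT BLM and 4 in the difference of responses, among 1212, 755, 614 and 3279 genes, where edgeR called 56, 12, 17 and 0. Leaving out 1 mouse gave 0 to 3, 0 to 3, 0 to 4 and 0 to 6 in the same order. The highest were each without KO PBS 136, among 2632, 6870, 1292 and 7470 genes called in all. Leaving out KO PBS 136 and KO BLM 141 gave 4, 4, 1 and 4, among 4164, 7648, 815 and 7218 genes. Signs turned only in values that were not called. With the covariate, log2 fold changes became −0.84 for Krt15 and −0.23 for Nfatc1 in WT, 0.34 for Lhx2, 0.49 for Sox9, −0.068 for Nfatc1, 0.16 for Foxc1 and 0.11 for Tbx1 in KO PBS versus WT PBS, 0.65 for Krt15, −0.088 for Sox9 and 0.12 for Nfatc1 in KO BLM versus WT BLM, and −0.58 for Sox9 and 0.19 for Nfatc1 in the difference. Cd34 in WT became 0.018 with upper-quartile scaling and 0.0061 with genes of at least 1 CPM, and Krt15 in KO BLM versus WT BLM 0.0051 with no filter. Without 1 mouse, values ran from −0.32 to 0.27 for Krt15 and −0.55 to 0.35 for Cd34 in WT, −0.70 to 0.092 for Foxc1 in KO, −0.18 to 0.0010 for Lhx2 and −0.40 to 0.23 for Sox9 in KO PBS versus WT PBS, and −0.31 to 0.39 for Krt15 and −0.81 to 0.084 for Cd34 in KO BLM versus WT BLM. The causes were not tested. RLE, upper-quartile and DESeq2 scaling moved the median of all genes by at most 0.0493 (log2). No paired analysis was possible because no mouse number occurs in more than 1 group. The fewest reads on any of the 7 genes in a mouse were 237 (Tbx1 in WT BLM mouse 145), and 3 mice per group limit every interval.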

Other observations

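Over the 12 mice the 7 genes were compared by the RMS difference of centred log2 CPM. This measure depends on the size of the changes as well as on their course, and by it the genes lay in 2 sets. Foxc1 and Sox9 were the closest pair (0.29), followed by Lhx2 and Tbx1 (0.40) and Foxc1 and Tbx1 (0.41). All 6 pairs among Lhx2, Sox9, Foxc1 and Tbx1 differed by at most 0.55. Krt15 and Nfatc1 (0.61), Cd34 and Krt15 (0.71) and Cd34 and Nfatc1 (0.72) came next. The SD of log2 CPM was 0.77 for Krt15, 0.76 for Cd34 and 0.59 for Nfatc1. Differences within this set were thus about as large as the spread of its genes, and a shared course is not shown. The pairs between the sets differed by 0.89 (Krt15 and Sox9) to 1.47 (Nfatc1 and Tbx1). Lhx2 and Tbx1 had larger SDs, 1.07 and 1.11, which widens their differences from the other set. The pairs share their mice and libraries, so these are descriptions without a test.

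The spread within KO PBS mice was wide in all but 1 of the 7 genes. The highest mouse exceeded the lowest by 2.31-fold (Foxc1) to 3.85-fold (Nfatc1) in 6 genes and by 1.28-fold in Lhx2. In KO PBS mice 136, 137 and 139 Lhx2 was 82.2, 70.1 and 89.8 CPM beside growing hair means of 10.58, −0.58 and 2.29 log2 CPM. In KO BLM mice 141, 143 and 144 it was 77.8, 37.7 and 27.5 CPM beside means of 9.49, 5.56 and 6.63 log2 CPM.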
